A study of Mus musculus with 36 samples.

Results

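The change in the liver's response to loss of the insulin receptor between the end of the light phase and the early dark phase was measured as a difference of differences, the knockout minus control difference at ZT16 minus the same difference at ZT12. Zeitgeber time (ZT) counts hours after lights-on, and lights went off at ZT12. The arrays were chosen by genotype and time in their titles, 6 in each of 4 groups, which gave 24 of the 36 arrays in the series. The other 12 arrays, from ZT8, were not part of this contrast. They entered the shared estimate of the spread, the wash batch term of the fit, the filter on dim probes and the choice of each gene's probe.

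All groups were livers of male C57BL/6J mice, 11 weeks old, fed chow freely under 12 h of light and 12 h of dark. IRLKO mice, called knockouts here, carried TTR-CreTam, a tamoxifen-inducible Cre recombinase driven by the transthyretin promoter, with LoxP sites around the fourth exon of the insulin receptor gene. IRLWT mice, called controls, are described as the IRhep+/+ counterparts of the knockout line (IRhep-/-). When mice received tamoxifen, and whether controls carried the Cre, is not in the labels. Their treatment field names no treatment. The samples are labelled as separate, without litters or cages, so p-values measure the spread between these samples only. Whole liver was used, where fewer cells of a type and less RNA per cell cannot be told apart.

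As background, hepatocytes carry a circadian clock in which CLOCK and BMAL1 (Arntl) drive the Per and Cry genes, whose proteins then repress their own transcription. Food intake, insulin, glucocorticoids and body temperature can all shift or modulate this loop in the liver. Mice feed mainly in the dark, so ZT16 falls in the feeding phase and ZT12 just before it.

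Levels are log2 signal minus the 75th percentile of the array, so 0 marks that percentile. On the 24 arrays, 54.7% to 63.1% of spots were well above background, and the median share per group ran from 58.0% to 59.2%. Insr, the deleted gene, was read at chr8:3155472-3155531 (mm9), and the exon it reads was not determined. Its lowest, median and highest levels were -1.86, -1.58 and -1.44 in controls at ZT12, -1.85, -1.70 and -1.24 in controls at ZT16, -3.95, -3.44 and -3.29 in knockouts at ZT12 and -3.75, -3.18 and -3.08 in knockouts at ZT16. Every knockout lay below every control at both times. The difference for Insr was 0.23 (SE 0.19, adjusted p = 0.698), and its standard error was of about the same size. Alb, which encodes albumin, was lower in knockouts at both times. It stood at 10.37, 10.42 and 10.52 in controls at ZT12 and 10.34, 10.41 and 10.70 in controls at ZT16. In knockouts it stood at 9.92, 10.11 and 10.25 at ZT12 and 9.97, 10.11 and 10.21 at ZT16.

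Of 23054 transcripts tested, 449 (1.95%) were called, meaning a limma adjusted p under 0.05. The genotype effect was higher at ZT16 for 252 of them (1.09%) and lower for 197 (0.855%). The median difference of all transcripts was 0.02, and 13.3% had an unadjusted p under 0.05. In 68 of the higher and 66 of the lower calls the difference was at least 2-fold. For scale, knockout and control differed for 42.2% of transcripts at ZT12 and for 39.9% at ZT16, while ZT12 and ZT16 differed for 3.62% in controls and 12.6% in knockouts. Leaving out 1 array at a time gave 246 to 670 calls, and the 4 arrays whose removal lowered the 449 by more than 1.5 times were knockout ZT16 replicate 2 (246), knockout ZT16 replicate 1 (279), knockout ZT12 replicate 4 (279) and control ZT12 replicate 3 (287).

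Most of these calls were of transcripts that changed between the times in knockouts. Of the 197 lower calls, 176 fell in knockouts with no call in controls, 13 rose in controls with no call in knockouts, 3 rose in controls and fell in knockouts, 1 fell in both and 4 were called in neither genotype alone. Of the 252 higher calls, 171 rose in knockouts with no call in controls, 55 fell in controls with no call in knockouts, 7 did both, 1 rose in both and 18 were called in neither. By genotype, 85 of the higher calls did not differ significantly at ZT12 and were higher in knockouts at ZT16, and 81 were lower in knockouts at ZT12 and not called at ZT16. Of the lower calls, 67 were higher in knockouts at both times, 55 only at ZT12 among the called comparisons, and 33 were lower in knockouts at ZT16 with no call at ZT12. Of the 176 lower calls above, 95 were read by probes with a run of alternating G and T, described below. With all such probes left out, the same class held 61 of 81 lower calls. These classes rest on the same arrays as the difference and are a description of it.

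**Figure D1:**
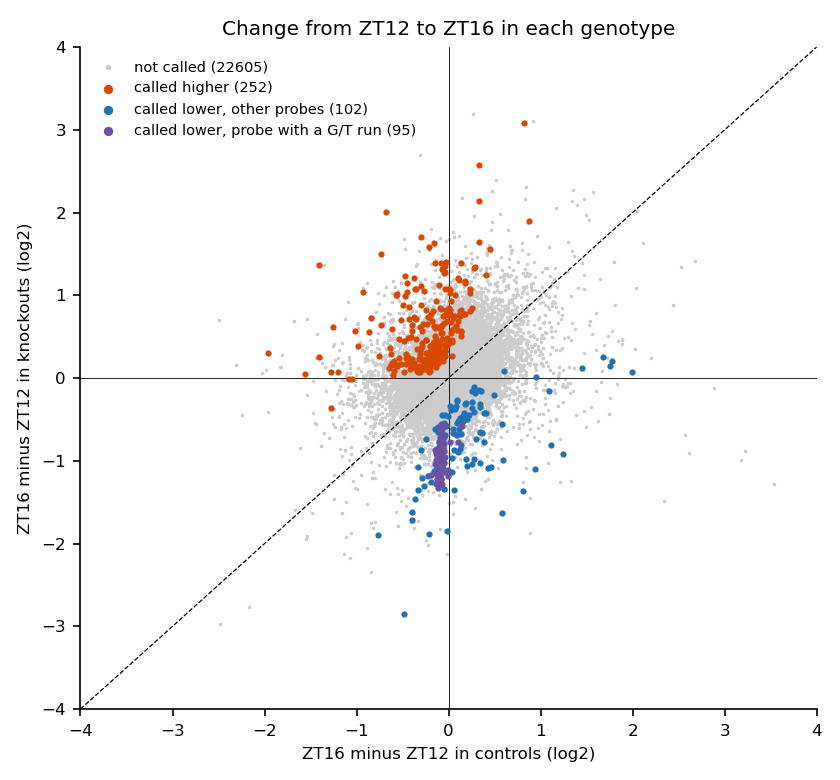
Change from ZT12 to ZT16 (log2) in controls on the horizontal axis and in knockouts on the vertical axis, 1 point per transcript, with the dashed line where both changed alike. The 252 transcripts called higher lie above the line and the 197 called lower below it, where 95 with a G/T run in the probe form a narrow vertical band near 0 in controls.

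A single sequence feature set apart nearly as many of the lower calls as all other probes together. Of the 197, 95 (48.2%) were read by a probe holding 10 or more bases of alternating G and T, against 0 of the 252 higher calls. Such probes made up 147 of those tested (0.638%), and 95 of the 147 (64.6%) were called. The stretches below, 30 bases of each 60-base probe with the run in capitals, are the 6 named transcripts with the most negative difference in this group and Ppp1r3b, a glycogen-targeting phosphatase subunit that belongs to a list described later. They were picked by the repeat and by size alone.
Zfp133-ps: gagttttaaaaaTGTGTGTGTGTGTGTGTG
Phip: ataatcattTGTGTGTGTGTGTGTGggggg
Arhgef15: gctgaatgtgGTGTGTGTGTGTGTGTGTGT
Dmtn: aatatgtgtgGTGTGTGTGTGTGTtggggg
Abca17: acttactcaTGTGTGTGTGTGcagacaagc
Serpinb8: tgtgtgtaTGTGTGTGTGTGTGcctctgtg
Ppp1r3b: GTGTGTGTGTGTGgtggaagagaatgattt

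The files place these probes, on mm9, at chr2:144293375-144293434 (Zfp133-ps), chr9:82788253-82788312 (Phip), chr11:68757516-68757575 (Arhgef15), chr14:71001871-71001930 (Dmtn), chr17:24404496-24404555 (Abca17), chr1:109504865-109504924 (Serpinb8) and chr8:36451115-36451174 (Ppp1r3b); whether each lies in an exon or intron was not determined.

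The longer the run, the larger the share called lower. It was 0.411% of 21882 probes with a longest run of up to 5 bases, 0.872% of 917 with 6 or 7, 3.70% of 108 with 8 or 9, 48.7% of 78 with 10 to 15 and 82.6% of 69 with 16 or more. The median difference of those last 69 was -0.76, with a median knockout minus control difference of 1.10 at ZT12 and 0.33 at ZT16. Of 73 probes with the complementary run of C and A, 3 were called higher and 0 lower, and their median difference was 0.38. Taken as 1 value per array, the median of the 95 probes was lowest, median and highest at 5.35, 5.87 and 6.28 in controls at ZT12, at 5.62, 5.69 and 6.13 in controls at ZT16, at 6.61, 7.08 and 7.34 in knockouts at ZT12 and at 5.75, 6.07 and 6.43 in knockouts at ZT16. Knockouts at ZT12 lay above every array of the other 3 groups, which overlapped one another.

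**Figure D2:**
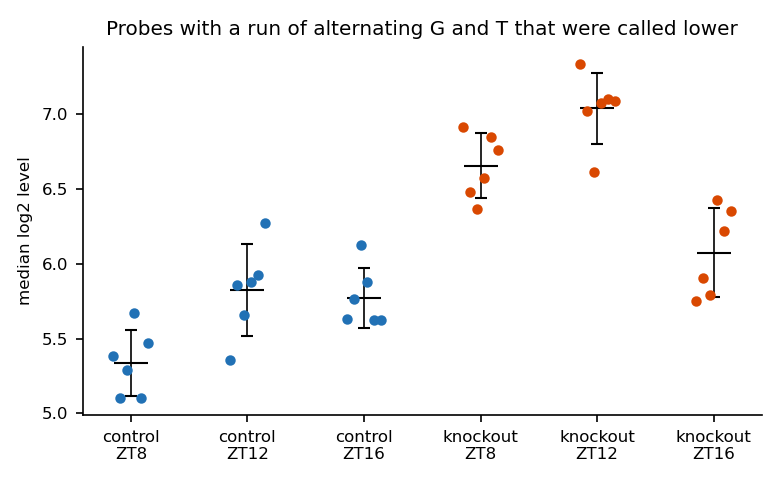
Median log2 level of the 95 G/T-run probes called lower, 1 point per array, with the mean and SD of the 6 arrays of each group. Knockouts at ZT12 (6.61 to 7.34) lie above knockouts at ZT16 (5.75 to 6.43), and the ZT8 groups run from 5.10 to 5.67 in controls and from 6.37 to 6.91 in knockouts.

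The 95 probes rose and fell together. Over all 36 arrays the median correlation between pairs of them was 0.98, against 0.30 between pairs of the other 102 probes called lower, a description in which all pairs share the arrays. Of the 95 genes named for these probes, 37 had another probe without such a run that passed the filter, 59 probes in all. None of these 59 was called lower by limma over all 34678 probes, 3 were called higher, and 30 were below 0. Of all transcripts tested, 0.855% were called lower and 1.09% higher, so 0 of 59 lower is near the overall share. The median difference of the 59 was -0.01, against 0.02 over all transcripts. The 95 calls are reported as readings of these probes and not as changes of the genes named for them. Which transcripts the probes hybridise was not tested. With all such probes left out before a gene's probe was chosen, an alternative added after the data were seen, 280 of 22966 transcripts (1.22%) were called, 199 higher and 81 lower, and 278 of the 280 were among the 449. Calls described from here on also hold in that fit unless stated.

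The remaining lower calls included genes of the repressing limb of the clock. Of 10 tested, 5 were called lower, where 0.855% of all transcripts were, and 0 higher, with a list median of -0.77 against 0.02 over all transcripts. The 5 were Per1, Per2, Per3, Cry2 and Ciart, a repressor of CLOCK and BMAL1 also known as CHRONO. Among 10 clock output genes, 4 were called lower and 0 higher, with a median of -0.79. These were Usp2, a deubiquitinase, Wee1, a kinase that holds back mitotic entry, Tef, a D-box-binding activator, and Nampt, the rate-limiting enzyme of NAD salvage.

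Per1 levels, as lowest, median and highest, were 3.28, 3.64 and 4.13 in controls at ZT12, 3.49, 3.75 and 3.92 in controls at ZT16, 3.07, 3.63 and 4.27 in knockouts at ZT12 and 1.24, 1.73 and 2.85 in knockouts at ZT16. Knockouts at ZT16 lay below every array of the other groups, which overlapped. From ZT12 to ZT16 Per1 did not pass the test in controls, at -0.02 (adjusted p = 0.98), and fell in knockouts by 1.85 on the log2 scale (adjusted p = 6.54e-07). The difference was -1.83 (SE 0.29, adjusted p = 0.00156), read by a probe at chr11:68923364-68923423 (mm9).

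Per2 was already lower in knockouts at ZT12. Its levels were 3.00, 3.12 and 3.28 in controls at ZT12, 3.25, 3.53 and 3.67 in controls at ZT16, 1.90, 2.14 and 2.51 in knockouts at ZT12 and 0.74, 1.09 and 1.75 in knockouts at ZT16. The knockout groups did not overlap each other or the controls. Its difference was -1.36 (SE 0.22, adjusted p = 0.00156), while a weaker second probe gave -0.44 and was not called. Per3 stood at -0.46, -0.26 and 0.02 in controls at ZT12, -1.51, -0.97 and -0.47 in controls at ZT16, -1.43, -0.94 and -0.70 in knockouts at ZT12 and -3.39, -2.84 and -2.58 in knockouts at ZT16. Knockouts at ZT12 overlapped controls at ZT16, and knockouts at ZT16 lay below all other arrays. Per3 fell in both genotypes, by 0.77 in controls and 1.89 in knockouts on the log2 scale, and the difference was -1.12 (SE 0.23, adjusted p = 0.00751). With normexp background correction the Per3 value was -0.59 (adjusted p = 0.0606). A dimmer Per3 probe gave -0.75 and was not called.

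Ciart was the gene of the list with the most negative fitted difference. Its levels were -1.81, -0.70 and -0.14 in controls at ZT12, -2.58, -1.21 and -0.25 in controls at ZT16, -4.59, -3.66 and -3.46 in knockouts at ZT12 and -7.25, -6.66 and -5.49 in knockouts at ZT16, and it was not well above background on any knockout array at ZT16. The ratio of controls to knockouts at ZT16 was at least 13.9-fold, and that of knockouts at ZT12 to knockouts at ZT16 at least 2.40-fold, where the dimmer group is set at the lowest signal well above background on each of its arrays. The fitted difference of -2.37 (SE 0.42, adjusted p = 0.00422) is no bound and depended on the handling of dim spots. It was -0.14 with normexp (adjusted p = 0.942) and -0.51 in the authors' processed table (adjusted p = 0.464). A dimmer Ciart probe gave -1.17 and was not called.

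Cry2, the other repressor of the pair with the Per proteins, was lower in knockouts at ZT16 than in any other group. Its levels were 3.37, 3.73 and 4.08 in controls at ZT12, 3.64, 3.83 and 4.07 in controls at ZT16, 3.44, 3.57 and 3.65 in knockouts at ZT12 and 2.96, 3.00 and 3.12 in knockouts at ZT16, with a difference of -0.64 (SE 0.15, adjusted p = 0.0165). Averaging its 3 probes gave -0.54 (adjusted p = 0.144). Of the other members, Nr1d2 and Nr1d1, which encode the REV-ERB repressors, had differences of -0.80 (SE 0.24, adjusted p = 0.0807) and 1.05 (SE 0.36, adjusted p = 0.133), so the paralogs had opposite signs and neither passed the test.

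Usp2 levels were 2.96, 3.33 and 3.86 in controls at ZT12, 2.60, 3.47 and 3.69 in controls at ZT16, 2.06, 2.52 and 2.79 in knockouts at ZT12 and 0.83, 1.15 and 1.48 in knockouts at ZT16. Knockouts at ZT16 lay below every other array, and knockouts at ZT12 overlapped the lowest control at ZT16. The difference was -1.29 (SE 0.26, adjusted p = 0.00723), and a second Usp2 probe gave -1.40 and was also called. Wee1 ranged over -0.26, 0.03 and 0.23 in controls at ZT12, -0.88, -0.32 and 0.17 in controls at ZT16, -1.43, -1.19 and -1.03 in knockouts at ZT12 and -3.48, -2.80 and -2.43 in knockouts at ZT16, and neither knockout group overlapped another group. Its difference was -1.23 (SE 0.26, adjusted p = 0.00919). The average of its probes gave -0.95 (adjusted p = 0.0602). Tef stood at 6.15, 6.20 and 6.69 in controls at ZT12, 5.75, 6.06 and 6.17 in controls at ZT16, 5.75, 5.94 and 6.17 in knockouts at ZT12 and 4.34, 4.79 and 5.08 in knockouts at ZT16. Only knockouts at ZT16 lay apart, below the other 18 arrays, and its difference was -0.91 (SE 0.17, adjusted p = 0.00537). Other Tef probes gave -1.04, which was called, and -0.38 and -0.67, which were not.

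Nampt did not differ significantly between the genotypes at ZT12. Its levels were 2.57, 3.02 and 3.08 in controls at ZT12, 2.03, 2.66 and 3.12 in controls at ZT16, 2.50, 2.77 and 3.02 in knockouts at ZT12 and 1.00, 1.48 and 1.95 in knockouts at ZT16, so that knockouts at ZT16 lay below every other array. Its difference was -1.03 (SE 0.25, adjusted p = 0.0246). Leaving out control ZT12 replicate 3 or knockout ZT16 replicate 2 ended its call, at an adjusted p of up to 0.0581. Dbp, a D-box-binding activator whose gene CLOCK and BMAL1 drive, fell in both genotypes, by 2.16 in controls and 2.76 in knockouts on the log2 scale. Its difference was -0.60 (SE 0.34, adjusted p = 0.487).

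**Figure D3:**
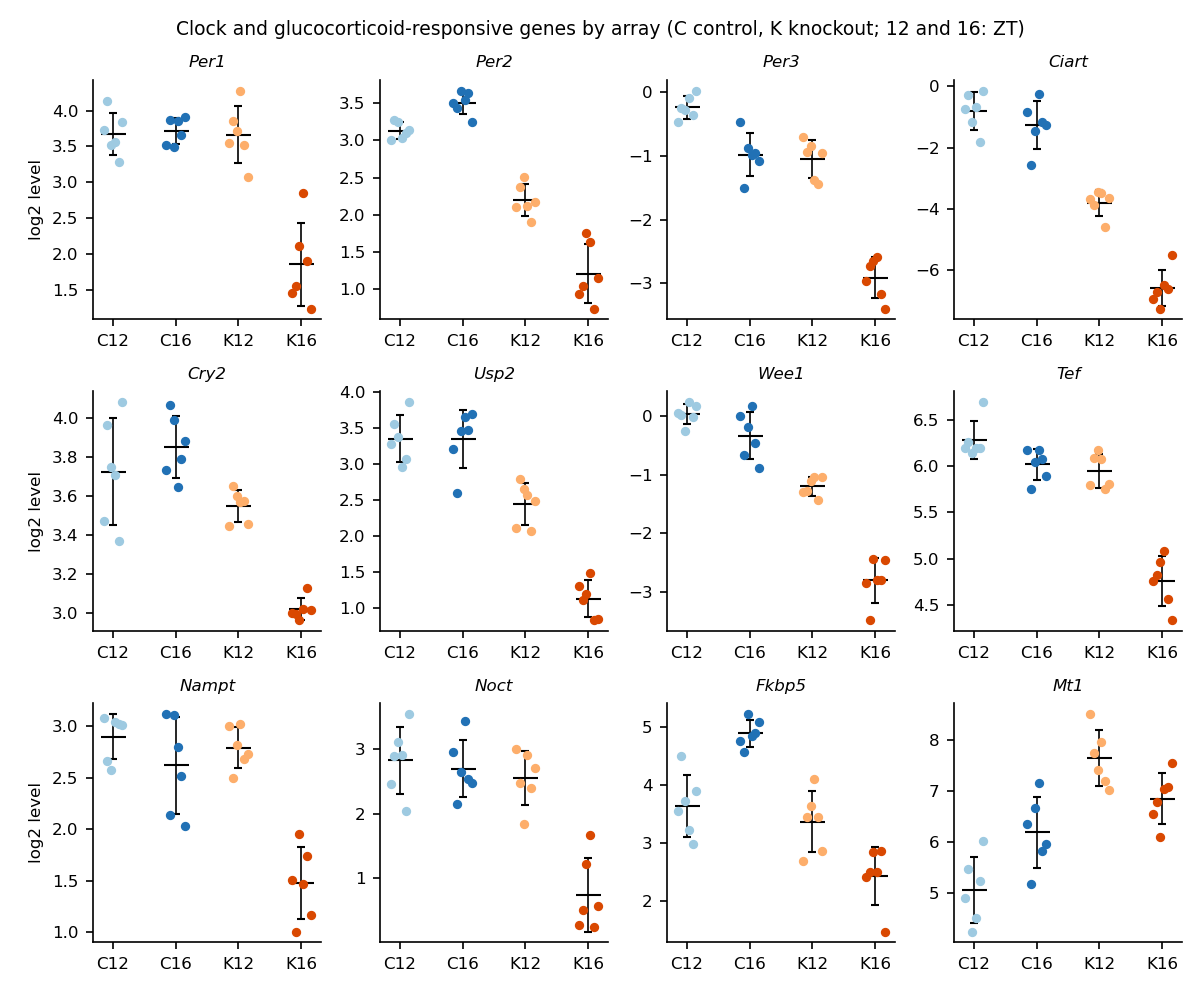
Log2 level of 12 clock and glucocorticoid-responsive genes on each of the 24 arrays, with the mean and SD of 6 arrays per group. For Per1, knockouts at ZT16 (1.24 to 2.85) lie below all other groups, while for Fkbp5 controls at ZT16 (4.56 to 5.22) lie above them.

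Of 5 genes of the activating limb, 0 were called by limma, where 1.95% of all transcripts were. An unadjusted p under 0.05 was found for 1 of the 5, against 13.3% of all transcripts. Arntl, which encodes BMAL1, rose by 1.29 in controls and 1.28 in knockouts, with a difference of 0.00 (SE 0.46, adjusted p = 0.998). Clock rose by 0.55 and 0.57, with a difference of 0.02 (SE 0.12, adjusted p = 0.978). With a standard error of 0.46 for Arntl, differences well above that size could have gone uncalled. For scale, Gm16551, at -1.52 (SE 0.41), had a limma adjusted p of 0.0467.

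Within the 3 wash batches, where each group held 1 to 3 arrays and no test was made, the sign held for 41 of 42 called named genes in all 3, Foxo3 being the exception. The differences in batches 1, 2 and 3 were -2.23, -2.31 and -0.67 for Per1, -1.09, -1.71 and -1.16 for Per2, -2.23, -3.15 and -1.84 for Ciart, -1.94, -1.52 and -0.72 for Usp2 and -0.22, -1.62 and -1.69 for Wee1. Batch 3, with 1 knockout array at ZT12, gave the value nearest 0 for Per1, Ciart and Usp2 and the value furthest from it for Wee1. Of genes described below, it was also nearest 0 for Pip5k1a (-3.11, -3.05 and -0.15), Mt1 (-2.40, -2.60 and -0.42), Serpine2 (-1.49, -2.78 and -0.43) and Fkbp5 (-2.71, -2.68 and -0.93). Others went the other way, such as Cirbp (0.45, 0.90 and 1.29) and H1f2 (1.93, 1.30 and 2.27). A sign that held therefore does not mean a like size in each batch.

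The upstream sequences of named genes were searched because the clock genes moved together. The E-box CACGTG, which CLOCK and BMAL1 bind, the D-box TTATGNAA of the Dbp and Tef family, the glucocorticoid receptor hexamer AGAACA, the heat shock pair GAANNTTC and the forkhead site TGTTTAC were sought on both strands in the 250 bases before the start. RefSeq promoters (GRCm38.p6) matched 24 of 35 genes. The E-box was present in 6 of the 24 (Ciart, Coq10b, Fkbp5, Per1, Pip5k1a and Tef) and in 6.86% of all genes with a promoter. Which transcript the called Pip5k1a probe reads was not tested, as described below, so its promoter may not be that of the transcript measured. The D-box was present in 5 (Coq10b, Gadd45a, Noct, Per1 and Per3) and in 3.63% of all genes. Of the 8 named clock genes with a promoter, 3 held an E-box and 2 a D-box. The 24 genes include calls in both directions and genes not called. The glucocorticoid receptor hexamer was in Tef alone, against 18.2% of all genes, the heat shock pair in Dnaja1 alone, against 7.73%, and the forkhead site in none, against 3.54%. A match is a description of these letters, and no test was made. The stretches of Per1, Ciart and Coq10b that hold matches are shown with the motifs in capitals, since Per1 and Coq10b hold both an E-box and a D-box and Ciart holds 3 E-boxes.
Per1: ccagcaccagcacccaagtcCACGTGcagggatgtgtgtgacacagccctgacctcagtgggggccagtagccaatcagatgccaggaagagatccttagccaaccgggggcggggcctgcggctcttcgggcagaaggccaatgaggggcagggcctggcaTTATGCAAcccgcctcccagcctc
Ciart: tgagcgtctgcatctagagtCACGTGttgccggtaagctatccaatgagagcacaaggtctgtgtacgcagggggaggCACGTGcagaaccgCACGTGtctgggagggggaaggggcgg
Coq10b: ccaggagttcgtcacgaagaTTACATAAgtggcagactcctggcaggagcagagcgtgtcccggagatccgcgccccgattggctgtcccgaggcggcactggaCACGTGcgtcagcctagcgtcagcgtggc

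The stretches lie at chr11:69098763-69098948 on the plus strand (Per1), chr3:95882246-95882364 on the minus strand (Ciart), chr1:55052588-55052720 on the plus strand (Coq10b), upstream of the transcript starts in GRCm38.p6. In Per1 the E-box begins 166 bases and the D-box 24 bases before the start, and in Ciart the 3 E-boxes begin 116, 58 and 44 bases before it.

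Of 16 genes listed as glucocorticoid-responsive, 3 were called lower (Fkbp5, Mt1 and Per1) and 0 higher. Of all transcripts, 0.855% were called lower and 1.09% higher. Per1 is also on the list of clock repressors. Of the 16, 15 were below 0, and the list median of -0.78 was made of a median change of 0.29 in controls and -0.37 in knockouts. Fkbp5, a co-chaperone of the glucocorticoid receptor and one of its most responsive targets, stood at 2.98, 3.63 and 4.49 in controls at ZT12, 4.56, 4.86 and 5.22 in controls at ZT16, 2.70, 3.45 and 4.11 in knockouts at ZT12 and 1.48, 2.50 and 2.86 in knockouts at ZT16. Controls at ZT16 lay above every other array, knockouts at ZT16 lay below every control, and knockouts at ZT12 overlapped both ZT12 controls and ZT16 knockouts. Fkbp5 rose in controls, 1.24 (adjusted p = 0.0037), and fell in knockouts, -0.92 (adjusted p = 0.0115), so the genotypes differed by -2.45 at ZT16 and by -0.29 (adjusted p = 0.358) at ZT12. The difference was -2.16 (SE 0.35, adjusted p = 0.00156). A second Fkbp5 probe gave -2.03 and was not called.

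Mt1, a metal-binding metallothionein, was higher in knockouts at ZT12, with levels of 4.23, 5.06 and 6.01 in controls at ZT12, 5.17, 6.15 and 7.15 in controls at ZT16, 7.01, 7.58 and 8.51 in knockouts at ZT12 and 6.09, 6.90 and 7.55 in knockouts at ZT16. Knockouts at ZT12 lay above all but the highest controls at ZT16, and the gap between genotypes narrowed from 2.60 to 0.67. The difference was -1.93 (SE 0.47, adjusted p = 0.0266), neither genotype's own change passed the test, and the call ended when any of 8 single arrays was left out (adjusted p up to 0.0597). These were control ZT12 replicates 3 and 4, control ZT16 replicates 3 and 4, knockout ZT12 replicates 1 and 4 and knockout ZT16 replicates 1 and 2. A second Mt1 probe gave -0.97, and the average of both -1.45 (adjusted p = 0.385). For Mt2 the difference was -2.34 (SE 0.65, adjusted p = 0.0541). Tsc22d3, which encodes GILZ, had -0.81 (SE 0.29, adjusted p = 0.169), Klf9 -0.81 (SE 0.25, adjusted p = 0.091) and Tat, a classical hepatic target, -0.43 (SE 0.25, adjusted p = 0.495). The receptor gene Nr3c1 had -0.11 (SE 0.11, adjusted p = 0.775).

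The transcript with the most negative difference among those above background on all 24 arrays was read by a probe annotated to Pip5k1a, a lipid kinase gene. Its value was -2.16 (SE 0.50, adjusted p = 0.0182), from 0.85, 1.62 and 2.93 in controls at ZT12, 1.54, 2.67 and 2.96 in controls at ZT16, 3.82, 4.28 and 5.66 in knockouts at ZT12 and 2.10, 3.11 and 4.19 in knockouts at ZT16. Over 36 arrays this probe followed Mt1 with a correlation of 0.97 and Mt2 with 0.99, and the other Pip5k1a probes had differences of -0.10 and -0.44, neither called. Averaging the Pip5k1a probes gave -0.90. Which transcript it reads was not tested. The call was lost in a fit of the 24 arrays alone (adjusted p = 0.0591).

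Noct, the deadenylase nocturnin, stood at 2.05, 2.91 and 3.54 in controls at ZT12, 2.15, 2.59 and 3.43 in controls at ZT16, 1.85, 2.59 and 3.00 in knockouts at ZT12 and 0.25, 0.54 and 1.67 in knockouts at ZT16, with a difference of -1.67 (SE 0.43, adjusted p = 0.0336). Knockouts at ZT16 lay below every other array, though leaving out any of 11 single arrays brought the adjusted p to between 0.05 and 0.0779. Coq10b, a coenzyme Q-binding protein of mitochondria, was higher in knockouts than in controls at ZT12 and fell in knockouts only among the called comparisons. Its levels were 1.53, 2.12 and 2.52 in controls at ZT12, 1.01, 1.73 and 1.89 in controls at ZT16, 2.57, 2.95 and 3.47 in knockouts at ZT12 and 1.01, 1.32 and 1.60 in knockouts at ZT16, its difference was -1.32 (SE 0.25, adjusted p = 0.0053), and its 4 other probes gave -0.89 to -1.47, of which 2 were called. AK087353, a transcript without a current gene name, rose in controls and fell in knockouts, with a difference of -2.03 (SE 0.31, adjusted p = 0.00133). Gm16551 had -1.52 (SE 0.41, adjusted p = 0.0467), a call that was lost in the fit without G/T-run probes (adjusted p = 0.0590) and without any of 17 single arrays.

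A smaller group rose in controls and did not pass the test in knockouts. Serpine2, a secreted protease inhibitor, stood at 0.39, 0.61 and 1.84 in controls at ZT12, 2.36, 2.70 and 3.15 in controls at ZT16, -0.41, -0.08 and 0.18 in knockouts at ZT12 and -0.47, 0.21 and 0.72 in knockouts at ZT16. All 6 controls at ZT16 lay above all other arrays. Serpine2 rose by 1.77 in controls (adjusted p = 4.81e-05), against 0.20 (adjusted p = 0.714) in knockouts, and the difference was -1.57 (SE 0.33, adjusted p = 0.00966). A second probe gave -1.94 and was also called. Non-coding transcripts at chr11:96111499-96126224 and chr9:118291593-118324230 (mm9), each named by its interval in the files, had differences of -1.60 (SE 0.28, adjusted p = 0.00412) and -1.33 (SE 0.24, adjusted p = 0.00399). Over the 24 arrays the levels of these 3 probes correlated at 0.92 to 0.97, which the shared arrays and groups enter. AK089905 was well above background on all 6 controls at ZT16 and on no knockout, and controls exceeded knockouts at ZT16 by at least 2.37-fold. Its fitted difference of -1.92 (SE 0.48, adjusted p = 0.0298) was -0.34 with normexp (adjusted p = 0.117).

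Among the higher calls, the linker histone gene H1f2 (Hist1h1c in the files) and the nuclear long non-coding RNA Neat1 rose in knockouts alone among the called comparisons. H1f2 stood at 2.38, 2.86 and 3.34 in controls at ZT12, 2.36, 2.65 and 3.08 in controls at ZT16, 1.75, 2.52 and 3.77 in knockouts at ZT12 and 3.18, 4.47 and 5.14 in knockouts at ZT16. Knockouts at ZT16 lay above every control at ZT16 and overlapped both ZT12 groups. The difference was 1.78 (SE 0.43, adjusted p = 0.0242), and a second H1f2 probe, counted as an entry of its own, gave 1.32. Without control ZT12 replicate 5 or knockout ZT16 replicate 2 the adjusted p for H1f2 rose to as much as 0.0537. Neat1, through the probe the files name NEAT1, stood at 4.62, 4.95 and 5.69 in controls at ZT12, 4.76, 5.03 and 5.13 in controls at ZT16, 4.59, 4.73 and 5.59 in knockouts at ZT12 and 5.96, 6.24 and 6.67 in knockouts at ZT16. Knockouts at ZT16 lay above every other array, and the difference was 1.44 (SE 0.26, adjusted p = 0.00509). Dimmer probes named Neat1 gave 0.62 and 0.47 and were not called.

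Atf5, a transcription factor of the mitochondrial and integrated stress responses, stood at 6.31, 6.79 and 7.13 in controls at ZT12, 6.41, 6.68 and 7.14 in controls at ZT16, 6.23, 6.50 and 6.79 in knockouts at ZT12 and 7.30, 7.48 and 8.13 in knockouts at ZT16. Every knockout at ZT16 lay above all other arrays, and the difference was 1.04 (SE 0.21, adjusted p = 0.00723), with 1.14 from a second probe, also called. Atf5 was the 1 call among 20 ATF4 targets and tRNA synthetases, where 1.09% of all transcripts were called higher. Of the 20, 17 were above 0, and their median was 0.25 against 0.02 over all transcripts. The glycyl-tRNA synthetase gene Gars was next, at 0.28 (SE 0.08, adjusted p = 0.053).

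In other higher calls, a lower level in knockouts at ZT12 was partly or wholly regained at ZT16. Gadd45a, a growth arrest and DNA damage response gene, stood at -0.35, 0.20 and 1.43 in controls at ZT12, -0.64, -0.35 and 0.24 in controls at ZT16, -2.53, -1.89 and -1.74 in knockouts at ZT12 and -1.65, -1.08 and -0.01 in knockouts at ZT16. It rose in knockouts, 1.02 (adjusted p = 0.00553), and the deficit against controls went from -2.33 to -0.75, a difference of 1.58 (SE 0.35, adjusted p = 0.0135). Gm32894, a long non-coding RNA, ranged over 0.13, 0.96 and 1.08 in controls at ZT12, -0.89, 0.32 and 0.93 in controls at ZT16, -1.75, -0.92 and -0.63 in knockouts at ZT12 and -0.07, 0.45 and 0.97 in knockouts at ZT16, with the largest difference among transcripts above background on all 24 arrays, 2.24 (SE 0.36, adjusted p = 0.00156). Mirt2, a long non-coding RNA, fell in controls, -0.84 (adjusted p = 0.0323), and rose in knockouts, 0.73 (adjusted p = 0.0313). Its levels were -0.95, -0.72 and -0.51 in controls at ZT12, -2.05, -1.48 and -1.19 in controls at ZT16, -3.22, -2.37 and -1.78 in knockouts at ZT12 and -2.39, -1.56 and -1.20 in knockouts at ZT16, and its difference was 1.57 (SE 0.32, adjusted p = 0.00748).

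The remaining large higher calls were 9130409I23Rik, at 1.97 (SE 0.41, adjusted p = 0.00897), 2900005J15Rik, at 1.45 (SE 0.21, adjusted p = 0.000991), C130078N14, at 1.42 (SE 0.28, adjusted p = 0.00648), and a transcript the files place at chr10:81846505-81863606, at 1.48 (SE 0.23, adjusted p = 0.00156). Gm15998 was higher in knockouts at both times and fell in controls, with a difference of 1.86 (SE 0.41, adjusted p = 0.013). Eme2, a subunit of a structure-specific endonuclease, had 1.44 (SE 0.28, adjusted p = 0.0064), but its second probe gave 0.17. Gnat1, the rod transducin subunit, fell in controls, -1.40 (adjusted p = 0.00565), and its difference of 1.65 (SE 0.41, adjusted p = 0.0309) lost its call without any of 9 single arrays. Serpinb1c, a serpin paralog, was well above background on 6 knockouts and 0 controls at ZT16, where knockouts exceeded controls by at least 4.24-fold. BC050216 had a like pattern, at least 2.52-fold, and C330013E15Rik was on all 6 controls and no knockouts at ZT12, at least 2.02-fold. With normexp the fitted differences of these dim transcripts shrank to 0.62 for Serpinb1c, 0.51 for BC050216 and 0.26 for C330013E15Rik. Each of the last 3 lost its call without some single array, 4 for BC050216, 9 for C330013E15Rik and 10 for Serpinb1c.

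**Figure D4:**
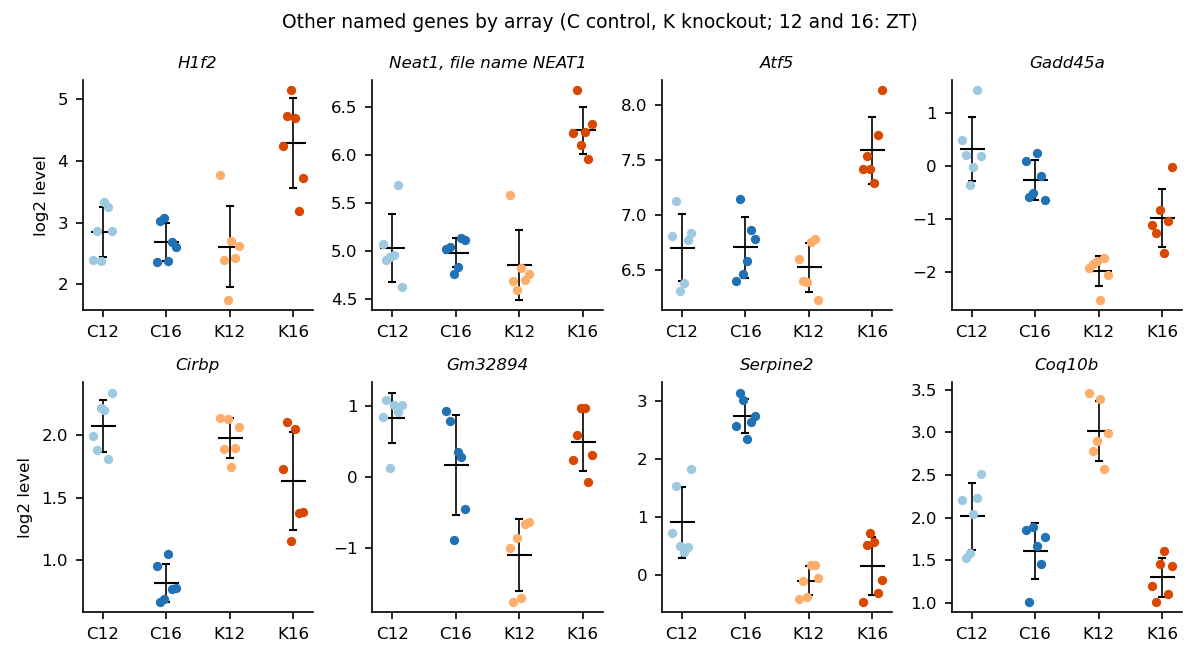
Log2 level of 8 further named genes on each of the 24 arrays, with the mean and SD of 6 arrays per group. Neat1 and Atf5 are highest in knockouts at ZT16, Serpine2 is highest in controls at ZT16 (2.36 to 3.15), and Cirbp is lowest in controls at ZT16 (0.67 to 1.05).

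Among 16 heat shock and temperature-linked genes, Cirbp was called higher and 0 were called lower. Over all transcripts, 1.09% were called higher and 0.855% lower. Cirbp, the cold-inducible RNA-binding protein, stood at 1.81, 2.10 and 2.34 in controls at ZT12, 0.67, 0.77 and 1.05 in controls at ZT16, 1.75, 1.98 and 2.14 in knockouts at ZT12 and 1.15, 1.56 and 2.11 in knockouts at ZT16. Controls at ZT16 lay below every other array. Cirbp fell in controls, -1.28 (adjusted p = 1.91e-06), against -0.37 (adjusted p = 0.074) in knockouts, and its difference was 0.91 (SE 0.19, adjusted p = 0.00897). Its dimmer probes gave 0.35 and 0.77, neither called. Of the 16, 14 were below 0, with a list median of -0.30 against 0.02 over all transcripts. Of the 14, 7 had an unadjusted p under 0.05, where 13.3% of all transcripts did in either direction. From ZT12 to ZT16, 10 of the 16 rose in controls and 7 in knockouts. Hspb1 rose by 1.64 in controls and 1.20 in knockouts, with a difference of -0.45 (SE 0.26, adjusted p = 0.495), and Hsph1 by 1.02 and 0.53, with -0.49 (SE 0.24, adjusted p = 0.361). Rbm3, the other cold-inducible RNA-binding protein, had -0.30 (SE 0.12, adjusted p = 0.209), opposite in sign to Cirbp.

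Of 20 feeding-responsive genes of glucose and glycogen metabolism, 3 were called lower, where 0.855% of all transcripts were, and 0 higher, with a median of -0.16 against 0.02 over all transcripts. Ppp1r3b was one of these, but its probe holds the G/T run shown above, and it had no other probe that passed the filter. Gys2, the liver glycogen synthase, stood at 6.48, 6.67 and 6.72 in controls at ZT12, 5.97, 6.34 and 6.43 in controls at ZT16, 6.52, 6.94 and 7.28 in knockouts at ZT12 and 5.71, 5.81 and 6.00 in knockouts at ZT16, with a difference of -0.74 (SE 0.18, adjusted p = 0.0277). It fell in knockouts, -1.08 (adjusted p = 1.67e-06), whose groups did not overlap, and its call was lost without knockout ZT12 replicate 1 or knockout ZT16 replicate 1 (adjusted p up to 0.0575). Igf1, the growth hormone-dependent growth factor, had -0.41 (SE 0.11, adjusted p = 0.0375), which was lost under quantile normalization (adjusted p = 0.0546) and without any of 12 single arrays.

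Among 18 FoxO targets and gluconeogenic genes, 1 was called lower, where 0.855% of all transcripts were, and 0 higher. This was Foxo3, at -0.53 (SE 0.14, adjusted p = 0.0382). Within batches its values were -0.95, -0.66 and 0.09, so batch 3 had the opposite sign, and the call was lost in the fit without G/T-run probes (adjusted p = 0.0501). Of 18 growth hormone and sex-biased genes, 1 was called lower, where 0.855% of all transcripts were, and 0 higher. This was Cux2, a female-biased liver repressor that growth hormone patterns control. Knockouts at ZT12 and ZT16 stood at -0.18, 0.44 and 1.09 and at -0.99, -0.71 and 0.10, against controls no higher than -3.30. The difference was -1.53 (SE 0.36, adjusted p = 0.0219), with 5 of 6 control arrays well above background at each time, and the average of its probes was -1.71 (adjusted p = 0.103). Other female-biased members had large values with large errors, among them Cyp3a44 at -3.52 (SE 1.02, adjusted p = 0.0649).

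The other 11 lists held no call by limma, where 1.95% of all transcripts were called. Of their 203 genes, 20 had an unadjusted p under 0.05, where 13.3% of all transcripts did. These lists covered the activating limb of the clock, synthesis of fatty acids, cholesterol and bile acids, PPARα targets, chaperones of the endoplasmic reticulum, ribosome biogenesis, amino acid breakdown, cAMP targets, immune genes and the cell cycle. Their medians ran from -0.37 for cAMP and glucagon targets to 0.33 for fatty acid and triglyceride synthesis, whose members had a median knockout minus control difference of -1.47 at ZT12 and -1.33 at ZT16. Lpin1, a phosphatidate phosphatase of that list, had -1.71 (SE 0.54, adjusted p = 0.104), with levels of 2.31, 3.51 and 4.40 in controls at ZT12, 2.42, 3.37 and 3.91 in controls at ZT16, 2.93, 3.85 and 5.34 in knockouts at ZT12 and 0.19, 2.24 and 3.36 in knockouts at ZT16. Its ranges overlapped in all 4 groups. Abcb11, the bile salt export pump, had 0.60 (SE 0.17, adjusted p = 0.055), Bckdhb, of branched-chain amino acid breakdown, -0.37 (SE 0.11, adjusted p = 0.0674), and Calr, an endoplasmic reticulum chaperone, 0.53 (SE 0.16, adjusted p = 0.0835).

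**Figure D5:**
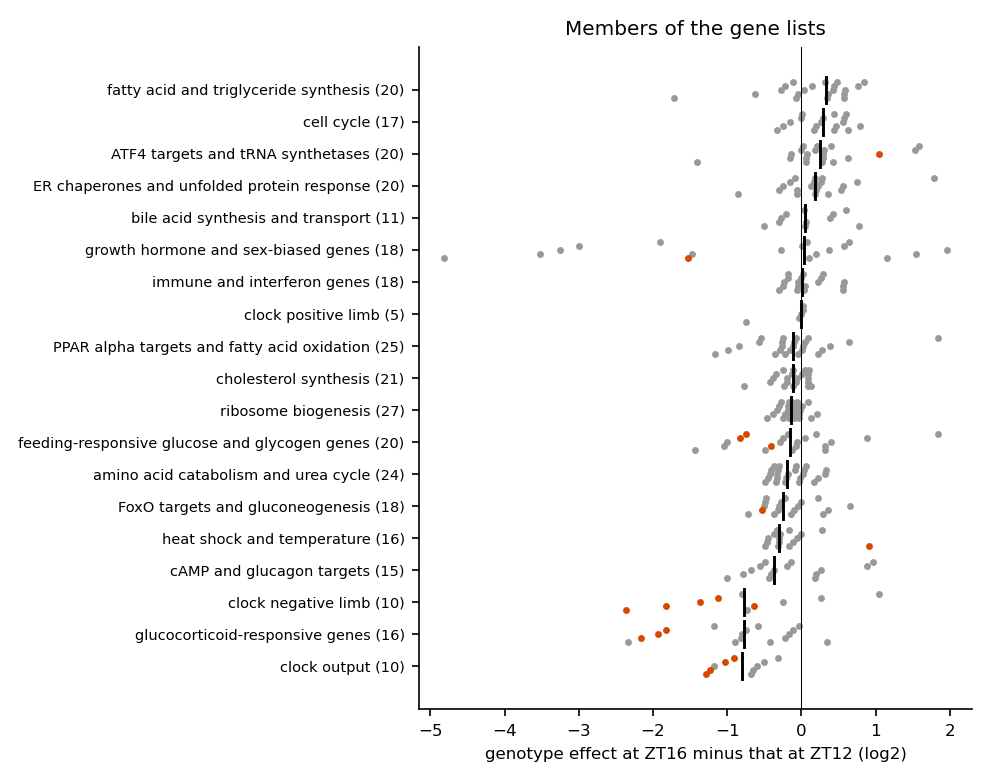
Difference of the genotype effect between ZT16 and ZT12 (log2) for each member of the 19 lists, with the number tested in parentheses, orange where called and grey where not, and a black bar at the list median. The repressing limb of the clock (-0.77), glucocorticoid-responsive genes (-0.78) and clock output (-0.79) have the lowest medians, against 0.02 for all transcripts.

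Of 65 markers in 10 lists, 1 was called higher and 0 lower by limma, where 1.95% of all transcripts were called. An unadjusted p under 0.05 was found for 5 of the 65, against 13.3% of all transcripts. List medians ran from -0.12 for Kupffer cells and macrophages to 0.25 for red cells, and the 7 hepatocyte markers had a median of 0.00. The called marker was Cela2a, a pancreatic elastase, at 1.35 (SE 0.34, adjusted p = 0.033). The summed level of the 4 pancreas markers ran from 4.68 to 5.25 in controls at ZT12, from 4.95 to 5.47 in controls at ZT16, from 3.98 to 4.09 in knockouts at ZT12 and from 3.88 to 4.17 in knockouts at ZT16. The part of other tissue in the result was not tested.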

How the data were processed

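Per the labels, whole-liver RNA was labelled with Cy3 and hybridised to 1-colour Agilent mouse arrays. Per the file headers, spots were extracted with Feature Extraction 10.10.1.1, which gave each spot a background-subtracted intensity. Deposited flags (other values, 0 or 1) mark background, saturation and outliers. The authors' table of log2 values (32801 probes, with the same sorted values in all 36 columns, so quantile normalized) served as an alternative. Other upstream steps are not given in the sources used here.

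From log2 of the processed intensity, the array's own 75th percentile of all but the control spots was subtracted. Probes well above background on at least 6 of 36 arrays were kept (34769), 91 without a value on some array were dropped, and each gene took its probe with the highest mean, which gave 23054. Of 56605 probes, 32994 were named through RefSeq accessions, 1535 of them differently from the files. A few genes hold entries under an older and a current name: the 449 calls cover 448 current names. Coordinates are those of the files (mm9). Fits used limma 3.58.1 in R 4.3.3 with 6 group means and wash batch (3 levels) as a fixed effect, 28 residual degrees of freedom, and Benjamini-Hochberg adjustment over all transcripts at 0.05. The script was tested on simulated data. A lower bound is given for a transcript above background throughout 1 group and nowhere in another.

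Named were Insr; the 12 largest calls each way that were above background on all 24 arrays; up to 6 called genes per list, or the 2 of smallest p where fewer than 2 were called; and up to 4 calls each way that were above background in 1 group and not in another. Of the genes this rule names, 2 are not reported here. Genes outside this rule that share a list or transcript family with them (Mt2, Nr1d1, Nr1d2, Dbp, Arntl, Clock, Tsc22d3, Klf9, Tat, Nr3c1, Hspb1, Hsph1, Rbm3, Alb, Cela2a and the G/T-run probes) were chosen after their values were seen. The groups, lists and rule were chosen with earlier results of these data known. Precision rests on the number of arrays, and 0 spots were saturated. Replicate numbers in the titles were not taken to pair the samples, and the closing section gives the values.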

Additional observations from a re-analysis of the deposited data

Results flagged for a closer look

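In 9 of 172 groups of 6 arrays examined over the called genes, 1 array lay so far from its group that its gap to the nearest array, as a share of the group's range, passed Dixon's 95% critical value, and chance flags about 1 in 20 groups. The shares were 0.792 for Tef (control ZT12 replicate 6, high), 0.770 for Neat1 through the NEAT1 probe (knockout ZT12 replicate 1, high), 0.756 for Gm32894 (control ZT12 replicate 3, low), 0.720 for 9130409I23Rik (control ZT12 replicate 5, high) and 0.636 for Gys2 (control ZT16 replicate 2, low). In knockouts at ZT16 they were 0.673 for Fkbp5 and 0.658 for Eme2 (replicate 6, low in both), 0.631 for Cux2 (replicate 6, high) and 0.649 for Cry2 (replicate 5, high).

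Among the named genes, 3 passed the test in both genotypes in opposite directions from ZT12 to ZT16. Their differences were -2.16 for Fkbp5 and -2.03 for AK087353, which rose in controls and fell in knockouts, and 1.57 for Mirt2, which did the reverse. The arrays of ZT8, outside this comparison, also separated the genotypes at the 95 G/T-run probes: the mean of the array medians was 1.32 higher in knockouts than in controls, with no overlap (6.37 to 6.91 against 5.10 to 5.67).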

How the results depend on the processing

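Of the 42 named genes that were called, 22 were called under all alternatives that gave a value (15 choices of processing and 25 single arrays left out), and none changed sign. Against 449 calls, 252 higher and 197 lower (102 of these without a G/T run), the counts moved by more than 1.5 times as follows. Without a filter on dim probes there were 254 calls, 122 higher and 53 lower without a G/T run, and with only the 24 arrays in the fit 266, 145 higher and 121 lower. Array weights gave 1084, 623 higher and 461 lower, with 347 lower calls without a G/T run, and the authors' processed table gave 164 of these. With G/T-run probes left out there were 280, with 81 lower. Leaving out single arrays gave 246 to 670 calls, 121 to 386 higher, 125 to 284 lower and 51 to 183 lower without a G/T run. Besides the arrays that lowered the total (knockout ZT16 replicates 1 and 2, knockout ZT12 replicate 4, control ZT12 replicate 3), the higher calls moved as far without control ZT12 replicate 4 (148) or 5 (165) or control ZT16 replicate 3 (159), and the lower calls without a G/T run without control ZT12 replicate 5 (67) or control ZT16 replicate 3 (65). All 4 lowest counts came without knockout ZT16 replicate 2 and all 4 highest without knockout ZT8 replicate 3. Array weights kept 98.4% of the 449, and the fit of 24 arrays 53.0%, in which H1f2 (adjusted p = 0.0501), Nampt (0.0561) and Mt1 (0.0590) missed the threshold. The replicate number was not used as a pairing. Same-numbered arrays' deviations correlated above 0.1 in 5 of 36 pairs of arrays (median 0.02). Arrays with different numbers were not compared, so a weak pairing could not be seen. With the replicate number as a block 379 transcripts were called, 203 higher, 176 lower and 89 lower without a G/T run. Signal over background limits the dim transcripts, Ciart above all, where the background correction set the fitted value.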

Other observations

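The 2 gene groups described here were put together after the values were seen, so their counts are a description and no test. Of 32 subunits of the proteasome, the complex that degrades ubiquitin-tagged proteins, 30 were above 0, 7 were called higher, where 1.09% of all transcripts were, and 0 lower, and the median difference was 0.24 against 0.02 over all transcripts. The called members included Psmd1 at 0.45 (SE 0.10, limma adjusted p = 0.0188), Psmd14 at 0.44 (SE 0.11, adjusted p = 0.0334) and Psma4 at 0.37 (SE 0.07, adjusted p = 0.00509). Psmd14, a deubiquitinase of the lid, stood at 2.95, 3.08 and 3.23 (lowest, median and highest) in controls at ZT12 and 2.82, 3.09 and 3.23 at ZT16, against 2.21, 2.48 and 2.60 in knockouts at ZT12 and 2.69, 2.87 and 3.07 at ZT16. Its knockout groups did not overlap each other. With G/T-run probes left out, 4 of the 7 kept their call (Psma4, Psma7, Psmd1 and Psmd14).

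Of 18 targets of NRF2, the activator of antioxidant and detoxifying genes, 5 were called higher, where 1.09% of all transcripts were, and 0 lower, with a median of 0.22 against 0.02 over all transcripts, and all 5 kept their call with G/T-run probes left out. Ephx1, the microsomal epoxide hydrolase, had a difference of 1.20 (SE 0.24, adjusted p = 0.00723), made of -0.61 in controls and 0.59 in knockouts. Srxn1, which reduces oxidised peroxiredoxins, had 0.86 (SE 0.17, adjusted p = 0.00734), with knockouts at ZT16 at 3.75, 4.07 and 4.23 and controls at ZT16 at 2.95, 3.09 and 3.27. Ugdh, which makes UDP-glucuronate, had 1.02 (SE 0.21, adjusted p = 0.00786), Aox1, an aldehyde oxidase, 0.97 (SE 0.15, adjusted p = 0.00133), and Pir 0.77 (SE 0.16, adjusted p = 0.00897).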
